A study of Mus musculus with 2 samples.

Results

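The genes described here are 10 neural miRNA genes, measured in embryonic mouse intestine (strain B6NCrl, embryonic day 16.5): Mir137, Mir153, Mir138-1, Mir138-2, Mir128-1, Mir128-2, Mir218-1, Mir218-2, Mir9-2 and Mir9-3. They were chosen by name, with earlier results of these data known, as miRNAs known from neurons that could be read in the gut wall. They make up 10 of the 1973 miRNA genes in each table. Both libraries hold RNA of under 30 nucleotides from healthy intestine pooled over male and female embryos, and per the labels they are biological replicates of 1 group. For replicate 2 the labels name 41 pooled embryos, and for replicate 1 they give no number. There is no second tissue, age or genotype, so the comparisons are among genes and between the replicates.

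The enteric nervous system is built by neural crest cells that migrate along the gut and form ganglia of neurons and glia within its muscular wall. A miRNA is cut from a hairpin transcript as a duplex of a 5p and a 3p arm, 1 arm of which is usually kept and guides repression of messenger RNAs through its seed, bases 2 to 8. In neurons, miR-137 and miR-138 are known from maturation and synapses, miR-153 from vesicle release, miR-128 from excitability, miR-218 from motor neurons and miR-9 from neural progenitors. Several of these miRNAs are encoded at more than 1 locus, so that the same mature RNA can come from different genes.

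Reads assigned to miRNA genes, on the sense strand, numbered 4261976 in replicate 1 and 5680764 in replicate 2. Levels are given in CPM, the count of a gene per 1000000 of these reads, not divided by length, since a read is a whole short RNA. Multimapping reads, which fit several loci, enter no gene count and numbered 2290968 in replicate 1 and 2796194 in replicate 2 (26.2% and 25.7% of reads). For a gene with 0 counts the limit is set at 3 counts, which is 0.704 CPM for replicate 1 and 0.528 CPM for replicate 2. Intervals are exact Clopper-Pearson 95% intervals within a library. Intervals and limits cover counting error only, because duplicates made by PCR are not marked in the tables. Markers of the labelled tissue were read: 9 of 9 genes of an intestinal epithelium list were detected, with a summed level of 90735 and 107593 CPM. Of the smooth muscle list, Mir143 stood at 173802 ± 4537 CPM (SD, n = 2) and Mir145a far lower, at 2622 ± 340 CPM.

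The mature arms of the 10 genes fall into 6 families, of which 2 have a single gene. They are shown because the arm decides whether a read can be given to 1 gene. The seed is in capitals, and all sequences are from RefSeq on GRCm38.p6, written 5′ to 3′. The first pair, 1 arm from each of Mir137 and Mir153, occurs in no other miRNA hairpin of the RefSeq table, and neither does the other arm of either gene.
miR-137-3p: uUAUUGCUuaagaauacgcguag
miR-153-3p: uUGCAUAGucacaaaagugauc
The next arms are each carried by a pair of the genes, so that a read of exactly these bases fits both loci.
miR-138-5p: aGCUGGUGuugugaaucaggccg
miR-128-3p: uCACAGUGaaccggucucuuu
miR-218-5p: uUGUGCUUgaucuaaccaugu
Their partner arms differ between the genes of a pair and occur in no other hairpin of the table.
miR-138-1-3p: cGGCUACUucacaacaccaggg
miR-138-2-3p: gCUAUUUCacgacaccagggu
miR-128-1-5p: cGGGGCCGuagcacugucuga
miR-128-2-5p: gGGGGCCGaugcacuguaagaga
miR-218-1-3p: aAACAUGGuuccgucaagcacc
miR-218-2-3p: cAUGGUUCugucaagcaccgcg
Both arms of miR-9 are the same in Mir9-1, Mir9-2 and Mir9-3, so no arm is particular to 1 gene.
miR-9-5p: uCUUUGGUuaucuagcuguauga
miR-9-3p: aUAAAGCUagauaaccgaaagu

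Within these arms, the partner arms of the miR-128 genes share the seed GGGGCCG although the rest of the arm differs. The partner arms of the miR-138 genes have different seeds, as do those of the miR-218 genes. Outside the family, the seed of miR-218-5p occurs in an arm of Mir7002 and that of miR-218-1-3p in an arm of Mir496b, and both of those genes had 0 counts in both libraries. No other miRNA of the table shares a seed with miR-137, miR-153, miR-138, miR-128 or miR-9. The gene counts do not separate the 5p from the 3p arm, so which arm the reads below come from was not measured.

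Mir137 had by far the most counted reads of the 10 genes. All the others except Mir153 have an arm that is the same at another locus. Reads of exactly such an arm enter no gene count, so shares and ratios against Mir137 are of counted reads only. Replicate 1 gave 6057 counts, at 1421 CPM (interval 1386 to 1457), and replicate 2 gave 9449 counts, at 1663 CPM (1630 to 1697), with a mean of 1542 ± 171 CPM (SD, n = 2). It ranked 81 of 1973 genes, between Mir872 (1575 ± 63.6 CPM) and Mir434 (1525 ± 248 CPM), with Mir28a (1749 ± 63.3 CPM) and Mir455 (1502 ± 228 CPM) next on either side. The libraries of these neighbours overlapped with those of Mir137, except that both values of Mir28a lay above it. Mir137 held 75.2% of the counts of the 10 genes in replicate 1 and 79.1% in replicate 2, a mean of 77.1% ± 2.77. The gene lies at chr3:118433857-118433929 (mm10, ENSMUSG00000065569) on the plus strand, in an exon of the noncoding transcript Gm26871 on the same strand.

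Mir153, the other gene with arms of its own, was read far less. It had 116 and 162 counts, or 27.2 CPM (22.5 to 32.6) in replicate 1 and 28.5 CPM (24.3 to 33.3) in replicate 2, a mean of 27.9 ± 0.919 CPM (n = 2). It lies at chr12:117250817-117250885 (ENSMUSG00000065538) in an intron of Ptprn2, which encodes a membrane protein of dense-core vesicles. Both values of Mir153 lay below both of Mir137, and neither gene has a copy of an arm among the other RefSeq hairpins.

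The miR-138 genes came next in level after Mir137. MiR-138 is known to limit the size of dendritic spines. Mir138-1 had 730 and 956 counts, or 171 and 168 CPM in replicates 1 and 2 (mean 170 ± 2.12 CPM). Mir138-2 had 467 and 535 counts, or 110 and 94.2 CPM (mean 102 ± 10.9 CPM). Both values of Mir138-1 lay above both of Mir138-2, and the ratio was 1.56 (interval 1.39 to 1.76) in replicate 1 and 1.79 (1.61 to 1.99) in replicate 2. Mir138-1 (chr9:122682876-122682974, ENSMUSG00000065414) overlaps an exon of the pseudogene Gm47135, and Mir138-2 (chr8:94324311-94324381, ENSMUSG00000065512) an exon of the lincRNA C78859, each on the same strand.

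The hairpins of this pair show which bases are shared, not how many reads can be told apart. Capitals mark bases inside a stretch of at least 20 bases that also occurs in another miRNA hairpin.
Mir138-1: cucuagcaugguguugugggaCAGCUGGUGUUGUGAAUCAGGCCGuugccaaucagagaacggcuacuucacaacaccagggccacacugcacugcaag
Mir138-2: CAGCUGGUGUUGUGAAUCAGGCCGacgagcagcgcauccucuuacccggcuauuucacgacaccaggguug
Within the annotated hairpins the shared run is 24 bases long, the whole of miR-138-5p and 1 base before it. It starts at the first base of the Mir138-2 hairpin, so bases further upstream were not compared. The hairpins part at the first base after the arm. A read that runs 1 templated base past the 3′ end of the arm is thus no longer the same at both loci.

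The miR-128 genes lie in introns of protein-coding genes, Mir128-1 in R3hdm1 (chr1:128202361-128202430, ENSMUSG00000065520) and Mir128-2 in Arpp21 (chr9:112118636-112118711, ENSMUSG00000065441, minus strand), which encodes an RNA-binding phosphoprotein of neurons. Mir128-1 had 346 and 420 counts, or 81.2 and 73.9 CPM (mean 77.6 ± 5.13 CPM, n = 2). Mir128-2 had 95 and 93 counts, or 22.3 and 16.4 CPM (mean 19.3 ± 4.19 CPM). Mir128-1 was the higher gene in both libraries, 3.64 times (2.89 to 4.62) in replicate 1 and 4.52 times (3.60 to 5.72) in replicate 2. The shared run of 23 bases holds miR-128-3p and 2 bases before it, and the hairpins part at the base after the arm.

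The miR-218 genes lie in introns of Slit2 and Slit3, which encode secreted guidance cues for axons and migrating cells. Mir218-2, in Slit3 (chr11:35616816-35616925, ENSMUSG00000065583), had 165 and 221 counts, or 38.7 and 38.9 CPM (mean 38.8 ± 0.133 CPM). Mir218-1, in Slit2 (chr5:48223942-48224051, ENSMUSG00000065603), had 55 and 91 counts, or 12.9 and 16.0 CPM (mean 14.5 ± 2.20 CPM). Mir218-2 was higher in both libraries, 3.00 times (2.20 to 4.15) in replicate 1 and 2.43 times (1.89 to 3.14) in replicate 2. Their shared run is 22 bases, miR-218-5p and 1 base after it. In the miR-138, miR-128 and miR-218 pairs the ratio was above 1 by more than its spread between the replicates. It is a ratio of the reads given to 1 gene each, and how the reads of the shared arm divide between the genes cannot be told.

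The miR-9 genes had the fewest counted reads. MiR-9 is known from neural progenitors, where it balances proliferation and differentiation. Mir9-3, in an intron of its host transcript Mir9-3hg (chr7:79505264-79505353, ENSMUSG00000093238), had 28 and 23 counts, or 6.57 CPM (4.37 to 9.50) in replicate 1 and 4.05 CPM (2.57 to 6.08) in replicate 2, with a mean of 5.31 ± 1.78 CPM. Mir9-2, in an exon of the lincRNA C130071C03Rik (chr13:83738814-83738885, ENSMUSG00000065424), had 0 counts in both libraries, where the limit is 0.704 and 0.528 CPM. Reads of exactly miR-9-5p or miR-9-3p fit several loci and enter no gene count. The 0 counts thus set no upper limit on the level of Mir9-2. The counts of Mir9-3 were 9.33 times that limit of 3 counts in replicate 1 and 7.67 times in replicate 2. These values take the counts of Mir9-3 as exact. They set no bound on the ratio of Mir9-3 to Mir9-2.

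Mir9-1 has no row of its own in the tables. Its locus (chr3:88215598-88215686, plus strand) is crossed by the row of Gm25641, annotated on the minus strand, whose reads on the opposite strand numbered 4 in replicate 1 and 3 in replicate 2, with 0 on its own strand. The miR-9 hairpins are shown with the same marking, because both arms are shared and the genes can be told apart only by the bases around them. Whether shared sequence has a part in their counts was not tested.
Mir9-1: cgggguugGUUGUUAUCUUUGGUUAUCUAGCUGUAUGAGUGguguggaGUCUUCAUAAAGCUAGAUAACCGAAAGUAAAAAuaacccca
Mir9-2: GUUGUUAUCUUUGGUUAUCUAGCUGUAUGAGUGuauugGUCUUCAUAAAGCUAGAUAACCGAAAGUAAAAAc
Mir9-3: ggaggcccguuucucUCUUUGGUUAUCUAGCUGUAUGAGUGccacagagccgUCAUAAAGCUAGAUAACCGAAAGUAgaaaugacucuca
Mir9-2 and Mir9-1 share runs of 33 bases around each arm, and in Mir9-2 66 of 72 bases lie in a shared stretch. The run around miR-9-5p starts at the first base of the annotated Mir9-2 hairpin, so bases further upstream were not compared. Mir9-3 shares at most 26 bases with either, and 51 of its 90 bases are shared. After miR-9-3p, Mir9-3 matches the other genes for 1 base, while Mir9-1 and Mir9-2 match each other for 5.

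**Figure D1:**
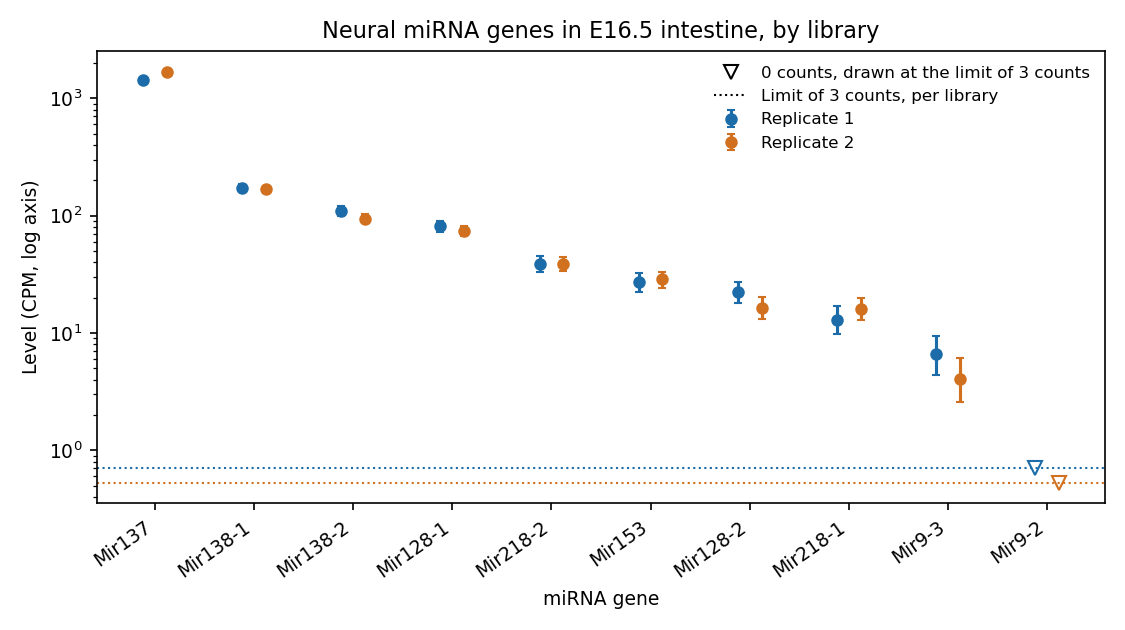
Level in CPM (log axis) of each of the 10 genes in replicate 1 and replicate 2, with exact 95% intervals; dotted lines are the limit of 3 counts in each library, and open triangles mark 0 counts. Mir137 stands at 1421 and 1663 CPM, 8 genes lie between 4.05 and 171 CPM, and Mir9-2 was not detected.

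Of the 10 genes, 9 reached 3 counts in both libraries, where 22.8% of all 1973 genes did. The same 9 reached 10 counts in both, against 17.6% of all genes. The genes were chosen with earlier results of these data known, so these shares are a description and not a test. Of the 1973 rows, 869 have a RefSeq hairpin of the same symbol, as all 10 genes do. Among 777 rows that match 1 RefSeq hairpin and have no arm with a copy, 42.9% reached 3 counts in both libraries. That class holds 2 of the 10 genes. Among 49 rows with a copy of some arms, which hold 6 of the 10 genes, 83.7% did. Among 32 rows with a copy of every arm, which hold 2 of the 10 genes, 28.1% did. The median level of the 10 genes was 33.3 CPM, against 0 CPM over all genes, and the median of the 9 detected genes was 38.8 CPM, against 51.1 CPM over the 450 genes detected in both libraries. No read was counted on the opposite strand of any of the 10 genes in either library. Together the 10 genes held 1891 CPM in replicate 1 and 2104 CPM in replicate 2, or 0.189% and 0.210% of the counts, and without Mir137 the other 9 held 470 and 440 CPM (the sum falls to 455 ± 20.8 CPM, n = 2). In bulk tissue, fewer cells of a type and less RNA per cell cannot be told apart, and which cells the reads came from was not measured.

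In order of mean level the genes ran Mir137, Mir138-1, Mir138-2, Mir128-1, Mir218-2, Mir153, Mir128-2, Mir218-1, Mir9-3 and Mir9-2. The order is of counted reads, which leave out reads of exactly a shared arm for all genes but Mir137 and Mir153. For each neighbouring pair in this order, both libraries of the higher gene lay above both of the lower. Among neighbours with counts in both libraries the widest step was from Mir137 to Mir138-1, with a ratio of 9.09 ± 1.12 (n = 2). The step from Mir9-3 to Mir9-2 has neither a ratio nor a bound, for the reason given above, and cannot be ranked against it. The steps from Mir153 to Mir128-2 and from Mir128-2 to Mir218-1 are the least secure. In replicate 1 the intervals of Mir153 (22.5 to 32.6 CPM) and Mir128-2 (18.03 to 27.2 CPM) overlapped, and in replicate 2 those of Mir128-2 (13.2 to 20.1 CPM) and Mir218-1 (12.9 to 19.7 CPM) did.

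The genes also differ in how much of the hairpin is their own. Windows were counted evenly along the annotated hairpin, whichever bases were read, so their share is not a share of reads. Every window of 20 bases in Mir137 (54) and Mir153 (50) occurred in no other RefSeq miRNA hairpin. The share of such windows was 93.8% in Mir138-1, 90.4% in Mir138-2, 92.2% in Mir128-1, 93.0% in Mir128-2, and 96.7% in both miR-218 genes. It was 81.7% in Mir9-3 and 47.2% in Mir9-2. The share depends on the length of the annotated hairpin: the miR-138 genes each had 5 shared windows, of 80 in Mir138-1 and 52 in Mir138-2. The pair of genes with the lowest shares were thus also those with the lowest levels, while Mir153, at 100%, ranked sixth in level, below 4 genes that have a shared arm. The search covered miRNA hairpins on both strands, not the rest of the genome, and the part of shared sequence in the levels was not tested.

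**Figure D2:**
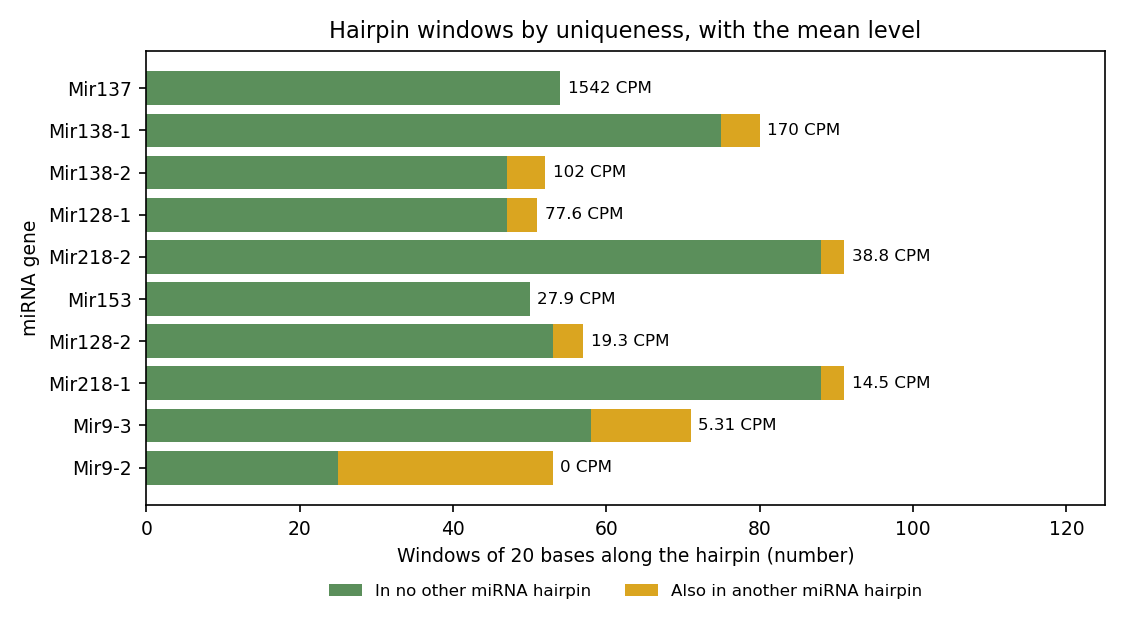
Number of 20-base windows along each hairpin that occur in no other miRNA hairpin (green) or also in another (yellow), with genes in order of mean level and that level (n = 2) written beside each bar. Mir137 and Mir153 have no shared window, the miR-138, miR-128 and miR-218 genes have 3 to 5, Mir9-3 has 13 and Mir9-2 has 28.

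Other miRNAs known from neurons were described with a list of 17 genes, of which 16 have a row and 11 reached 3 counts in both libraries. The highest was Mir134, a dendritic miRNA of the imprinted Dlk1-Dio3 region, at 1041 and 893 CPM (mean 967 ± 105 CPM). Mir7b stood at 603 and 658 CPM and Mir7-1 at 177 and 196 CPM. MiR-7 is made by endocrine cells as well as neurons. Mir132 and Mir212, neighbours induced by neuronal activity, stood at 227 ± 25.4 and 27.7 ± 3.31 CPM. Every gene of this list was below Mir137 in both libraries, and 4 of them (Mir134, Mir7b, Mir132 and Mir7-1) were above Mir138-1 in both.

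Lower in the list, Mir7-2 (30.4 ± 5.84 CPM), Mir384 (22.8 ± 1.90 CPM), Mir383 (20.4 ± 1.70 CPM) and Mir488 (6.22 ± 1.82 CPM) lay below Mir218-2 and above Mir9-3 in mean level. Mir129-1 (17.3 ± 10.04 CPM) and Mir129-2 (12.5 ± 12.2 CPM) varied most between the libraries, at 104 and 58 counts and at 90 and 22 counts in replicates 1 and 2. The remaining 5 genes with a row were at or below 3 counts in both libraries. They include the 3 genes of miR-124, the classic neuronal miRNA, with 0 and 2 counts at Mir124a-1 and 0 in both at Mir124a-2 and Mir124a-3. These are counts of reads that fit 1 locus. MiR-124 is encoded at several loci and multimapping reads enter no gene count, so the low counts do not show that miR-124 is absent. RefSeq mature arms were matched for 12 of the 16 genes, and copies of an arm were not checked for the other 4, Mir124a-1, Mir124a-2, Mir124a-3 and Mir383. In 4 of the 12 matched genes at least 1 arm had a copy elsewhere (Mir7-1, Mir7-2, Mir129-1 and Mir129-2).

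Of 3 genes for miRNAs known from myelinating glia, 3 were detected. Mir219a-1 and Mir219a-2 both carry miR-219a-5p, so a read of exactly that arm fits both loci, while no arm of Mir338 has a copy in another hairpin. Mir338 stood at 97.8 and 110 CPM (mean 104 ± 8.61 CPM), about the level of Mir138-2, Mir219a-1 at 15.8 ± 2.78 CPM and Mir219a-2 at 2.90 ± 0.125 CPM. The glial genes summed to 115 and 131 CPM, the other neuronal genes to 2230 and 2069 CPM, and the 10 genes to 1891 and 2104 CPM. The order of the last 2 sums differed between the replicates.

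**Figure D3:**
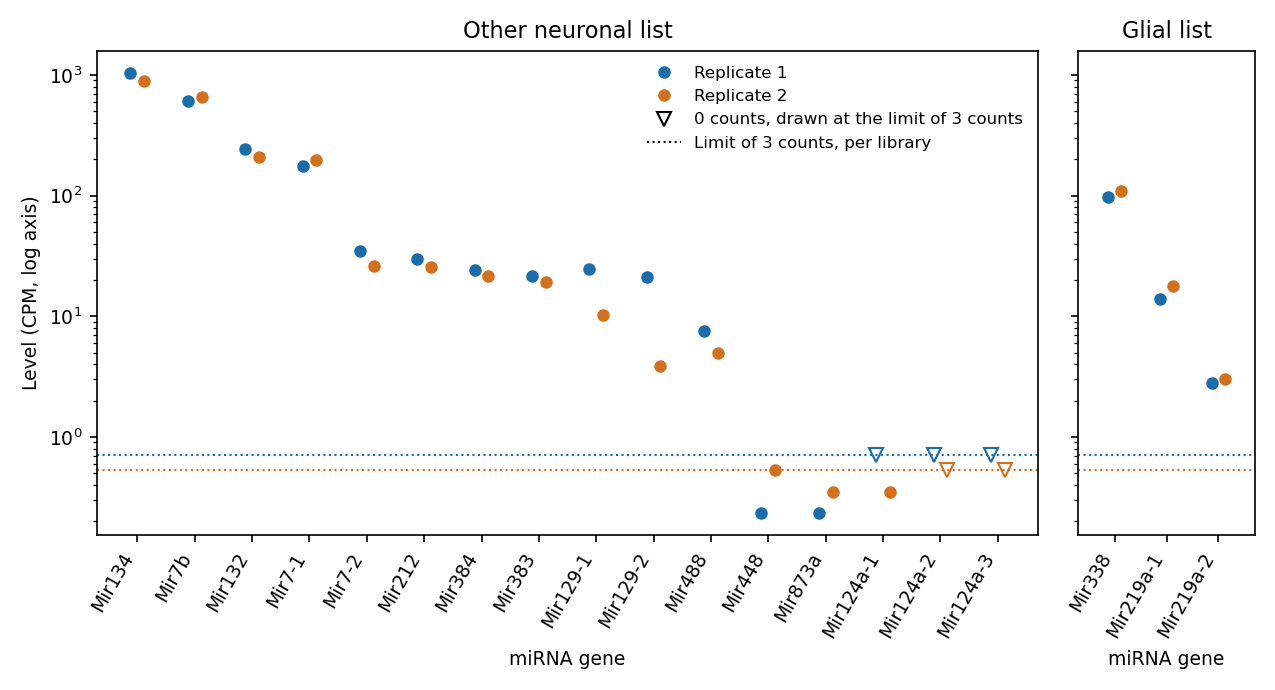
Level in CPM (log axis) of the 16 other neuronal genes and 3 glial genes with a row, in each replicate; dotted lines are the limit of 3 counts, and open triangles mark 0 counts. Mir134 and Mir7b lead at 967 and 631 CPM, Mir129-1 and Mir129-2 are lower in replicate 2, and the miR-124 genes lie at or below the limit.

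The last comparison was between the replicates. Of the 9 genes with at least 20 counts summed, Mir137 differed by more than counting error and was higher in replicate 2, with a log2 ratio of 0.36 (95% interval 0.31 to 0.40) after TMM scaling, a scaling on the bulk of the genes. The exact binomial test, two-sided and conditional on the summed count, gave an adjusted p of 1.22e-50 (Benjamini-Hochberg over 364 genes). The other 8 did not pass, where 51.9% of all tested genes did (24.5% higher in replicate 2 and 27.5% higher in replicate 1). The test sets 2 libraries against counting error and not against the spread between pools, and none of the 9 genes both passed and reached 1.5-fold.

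For the genes that did not pass, the intervals show what the depth allows. Mir138-1 had a log2 ratio of 0.10 (-0.04 to 0.25) and Mir128-1 of -0.01 (-0.21 to 0.20), intervals that leave out a difference as large as that of Mir137 under TMM. The log2 ratio of Mir138-2 was -0.09 (-0.27 to 0.09) and that of Mir218-2 0.14 (-0.16 to 0.44). Mir153 had 0.20 (-0.16 to 0.55), Mir218-1 0.44 (-0.06 to 0.95), Mir128-2 -0.32 (-0.74 to 0.11) and Mir9-3 -0.56 (-1.43 to 0.28), and for these 4 genes and Mir218-2 a difference of that size, in 1 direction or the other, lay within the interval. Total counts in place of TMM shift every log2 ratio down by 0.13. Mir137 then stood at 0.23 (adjusted p of the exact test 4.70e-21), Mir138-2 passed at -0.22 (adjusted p of the exact test 0.0324; 0.437 under TMM), and Mir138-1 changed sign to -0.03 without passing. With that scaling 12.6% of the tested genes were higher in replicate 2 and 45.1% higher in replicate 1. The median log2 ratio of the 9 genes was 0.10 under TMM and -0.03 under total counts, against -0.02 and -0.15 over all 364 genes.

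**Figure D4:**
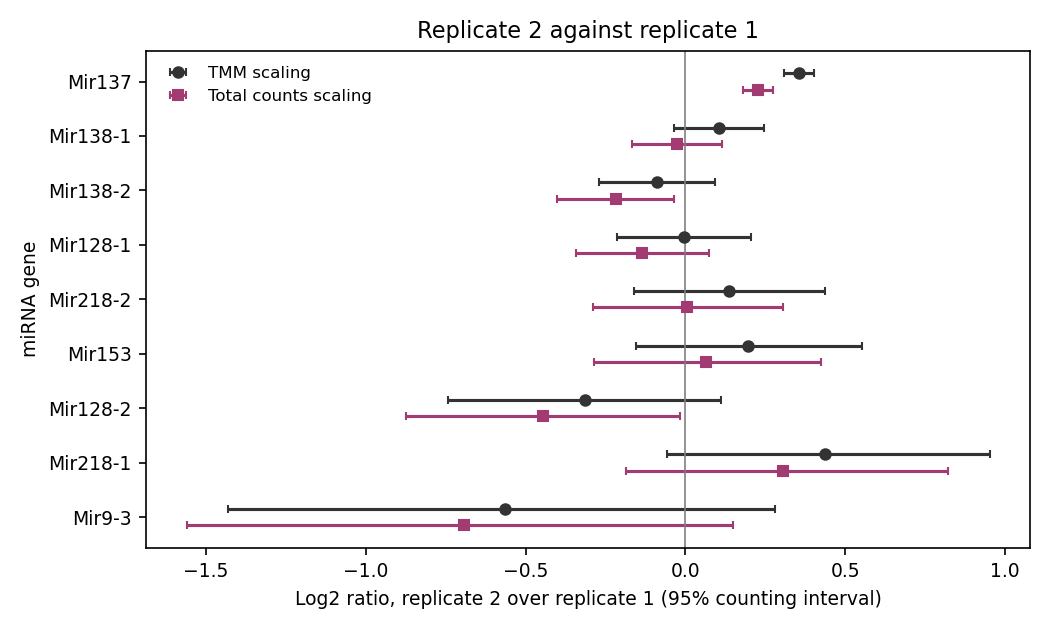
Log2 ratio of replicate 2 over replicate 1 for the 9 genes tested, with 95% counting intervals, under TMM scaling (circles) and total counts (squares). Only the intervals of Mir137 lie above 0 under both scalings, at 0.36 and 0.23, and intervals widen down the plot as counts fall.

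In the other neuronal list, 2 of 11 tested genes were higher in replicate 2 and 3 higher in replicate 1 by the same exact test under TMM. Of all 364 tested genes 24.5% and 27.5% were, so these counts are near the share over all genes. Mir7b (log2 ratio 0.26) and Mir7-1 (0.28) were higher in replicate 2, as Mir137 was. Mir129-2 (-2.29, interval -3.06 to -1.63), Mir129-1 (-1.12, -1.62 to -0.65) and Mir134 (-0.09) were higher in replicate 1. The miR-129 genes carry the same 5p arm, and whether their counts depend on each other was not tested. Under total counts 1 gene of the list was higher in replicate 2 and 5 were higher in replicate 1. With that scaling 12.6% and 45.1% of all 364 genes were, so these counts too are near the share over all genes. Of the 3 glial genes 1 was higher in replicate 2 under TMM, Mir338, and 0 passed under total counts, where 57.7% of all 364 genes passed by the exact test.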

How the data were processed

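For each miRNA gene of a library the authors deposited a raw count of reads without normalization; build mm10 and annotation GENCODE M4 are named in the readme files. Sources used here do not give the aligner, counter or trimming. A table holds 3 count columns without names: they were told apart by their values, since the first is the sum of the other two for each gene, and the middle column, with 96.2% and 96.3% of that sum, was used as the sense strand. Rows that name no gene (unmapped, mapped to several loci, outside genes) were left out of totals: unmapped reads were 19.5% and 17.2%.

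CPM was computed from the gene totals. Names and positions came from GENCODE M21 (1894 of 1973 identifiers matched) and sequences from RefSeq, GRCm38.p6 (10 of 10 genes at the same coordinates). Replicates were compared for genes with at least 20 counts summed by an exact conditional binomial test with TMM sizes from edgeR 4.0.16 (prior count 0.5 for log2 ratios, threshold 0.05), checked on simulated counts. With 1 group, edgeR's quasi-likelihood test has no contrast. Named were the 10 genes, neuronal and glial listed genes with at least 10 counts in both libraries, level neighbours of Mir137 and genes sharing a seed. Mir143, Mir145a, the miR-124 genes, Mir7002, Mir496b, Gm25641 and Gm24155, which fall outside that rule, were named after their values were seen. Alternatives were unstranded counts, other totals, each replicate alone, other count minimums, DESeq2 1.42.0 size factors, total counts and, chosen after seeing the data, windows of 18 and 22 bases. The genes and lists were chosen with earlier results of these data known. R 4.3.3 ran edgeR; scipy 1.17.1 under Python 3.11.15 gave the exact tests and intervals, and matplotlib 3.10.9 the plots.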

Additional observations from a re-analysis of the deposited data

How the results depend on the processing

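Of the 10 genes, 9 were detected under each alternative tried: a minimum of 1 or 10 counts, unstranded counts, and either replicate left out. The share of Mir137 among their counts ran from 75.2% to 79.1% with a replicate left out. Their summed level, 1997 CPM, ran from 1891 to 2104 CPM with a replicate left out, was 2417 CPM when the most abundant gene was taken out of the total, and 1010 CPM per 1000000 reads of any kind, which changes the divisor and not the order of the genes. Of the replicate comparison, 189 of 364 genes passed, 187 of 364 under DESeq2 size factors and 210 of 364 under total counts. The number tested changed with the other settings. With a minimum of 1 count summed 182 of 716 passed, with 100 counts 174 of 287, and with unstranded counts 187 of 373. With a 1.5-fold minimum added 40 of 364 passed. The share of genes that passed thus depends on the count minimum. Under TMM 89 genes were higher in replicate 2 and 100 in replicate 1, against 46 and 164 under total counts. Mir137 stayed higher in replicate 2 in every alternative, at 0.23 to 0.40. Log2 ratios changed sign for Mir138-1 (-0.0257 under total counts) and Mir128-1 (0.0127 under DESeq2 size factors and 0.0345 with a minimum of 1 count), none of which passed the test. The cause was not tested beyond the shift that each scaling applies to all genes. With windows of 22 bases in place of 20, Mir9-2 had 52.9% of windows to itself, and with 18 bases 41.8%, the lowest of the 10 genes in both. Low counts limit the miR-9 genes most: at 28 and 23 counts the interval of Mir9-3 spans a fold of over 2 in each library. The 0 counts at Mir9-2 are of reads that fit 1 locus. With both arms shared, they set no upper limit on its level.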

Other observations

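The same description of arms can be given for the whole table. Of 858 gene rows that match 1 RefSeq hairpin, 777 have no arm with a copy in another hairpin, 49 have a copy of some but not all arms, and 32 have a copy of every arm. The 10 neural genes fall in all 3 classes, with Mir137 and Mir153 in the first, the miR-138, miR-128 and miR-218 genes in the second and the miR-9 genes in the third. At least 3 counts in both libraries were found for 42.9% of the first class, 83.7% of the second and 28.1% of the third. Among detected genes the median levels were 60.6, 35.9 and 51.2 CPM. The classes were not matched for age, host gene or tissue of their miRNAs, and no test was made.

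Of the 10 genes, 1 has another miRNA row within 10 kb: Gm24155 lies 792 bases from Mir137 and had 0 CPM in both libraries. For the other 9 the nearest miRNA row was at least 165471 bases away.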
